A study of Mus musculus with 4 samples.

Results

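Malat1 and Neat1 are 2 neighbouring genes on the minus strand of mouse chromosome 19 whose long noncoding RNAs stay in the nucleus. Their 3′ ends and their contacts with the cleavage factor CstF64 were taken from 4 libraries. The members were chosen by position in the mm9 build, chr19:5795600-5802700 for Malat1 and chr19:5824600-5845600 for Neat1. Positions of polyadenylated ends were joined into clusters where neighbours lay at most 24 nt apart. Clusters of 3 or more reads numbered 10 in Malat1 and 11 in Neat1, of 56206 in the genome.

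Polyadenylated ends were mapped by 3'READS, which captures RNA fragments that carry a poly(A) tail and sequences them to find the cleavage position. RNA was bought as a mix from 11 mouse cell lines, which the labels do not name, so an end cannot be tied to any line. One library was captured with the CU5T45 oligo, a long stretch of T behind a few U that allows stringent washing and release by RNase H. The other was captured with oligo(dT)10-25 beads, which carry the short and mixed T stretches of ordinary poly(A) selection. CstF64 was studied by CLIP-seq, in which UV light links a protein to the RNA it touches, in 2 replicates from proliferating C2C12 cells, a mouse myoblast line.

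Malat1 RNA is found in nuclear speckles, and Neat1 RNA is the scaffold of paraspeckles. Neat1 makes a short RNA, ended by ordinary cleavage and polyadenylation, and a long RNA that reads past that site and is the one needed to build paraspeckles. Malat1 and the long Neat1 RNA are not ended in the usual way. RNase P cuts each of them beside a tRNA-like structure, and a genome-encoded A-rich tract folded into a triple helix with U-rich stretches protects the new end. CstF64 is the subunit of the cleavage stimulation factor that contacts RNA, and it recognises U-rich and GU-rich RNA downstream of poly(A) sites.

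These kinds of end can be seen in the annotated transcripts. The last 60 nt of 3 GENCODE transcripts are given, together with 60 nt around the longest A run in the last part of Malat1. They come from the GRCm38 build, which differs from that of the measurements, so they show what an end looks like and were not aligned with the reads by coordinate. Capitals mark the poly(A) signal AATAAA in Malat1-201 and in the short Neat1-202. They also mark the A-rich tract in the long Neat1-201 and, in the inner Malat1 stretch, the longest A run only.
Neat1-202, chr19:5842307-5842366, minus strand: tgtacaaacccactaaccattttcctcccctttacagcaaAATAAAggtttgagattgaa
Neat1-201, chr19:5824708-5824767, minus strand: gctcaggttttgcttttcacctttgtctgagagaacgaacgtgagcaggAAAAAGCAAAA
Malat1-201, chr19:5795690-5795749, minus strand: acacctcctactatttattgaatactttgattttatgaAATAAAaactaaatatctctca
Malat1-201 A run, chr19:5795973-5796032, minus strand: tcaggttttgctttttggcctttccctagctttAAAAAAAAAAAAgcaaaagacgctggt
The signal AATAAA begins 20 nt before the end of Neat1-202 and 22 nt before the end of Malat1-201. It is not among the last 60 nt of Neat1-201. Of 141515 annotated mouse transcripts of at least that length, 27.2% hold AATAAA in their last 60 nt and 4.82% hold it on the opposite strand, as Malat1-201 also does. The letters AATAAA also occur elsewhere, 4 times in Malat1-201 and 6 times in Neat1-201 in all.

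Distances between sites, each measured within its own build, bear on which annotated end a cluster stands for. In the reads, the most used position of the cluster at the Neat1 short end lay 17594 nt from that at its long end. The annotated ends of Neat1-202 and Neat1-201 lie 17599 nt apart in GRCm38. From the Malat1 end to the Neat1 long end the distance was 29018 nt in the reads and 29018 nt between the annotated ends. The cluster next to the Malat1 end ran from 292 to 298 nt upstream of it, and the annotated A run of Malat1 stops 298 nt before the transcript's end. The members were therefore called by these names. The Malat1 end here means the annotated end of Malat1-201, which has AATAAA before it. The name does not mark the place of the RNase P cut, which was not mapped in these data.

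The CU5T45 library held 6738355 reads and the oligo(dT)10-25 library 3482826. The CLIP replicates held 1101047 and 1352122 distinct alignments. Each oligo has 1 library and so no replicate error, and every interval given for the oligos is a 95% interval for counting error only. PCR copies are not independent molecules, so these intervals are too narrow. Comparisons between oligos are between these libraries and not between the conditions, and none carries a p-value. Levels are in counts per 1e6 reads of the library (CPM). Where 0 reads were found, up to 3 could have been missed by sampling, or 0.445 CPM with CU5T45 and 0.861 CPM with oligo(dT)10-25.

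Polyadenylated ends of Neat1 were abundant and sharply placed, while those of Malat1 were few and scattered. The Neat1 window held 756 CU5T45 reads (112 CPM) and 752 oligo(dT)10-25 reads (216 CPM) at 75 positions. In Malat1 there were 93 reads (13.8 CPM) and 137 reads (39.3 CPM) at 119 positions. Of these Malat1 positions, 89 had a single read over both libraries and 110 had 1 or 2. In Neat1 46 of the 75 positions had a single read and 52 had 1 or 2, while the bulk of its reads lay at a few others. In Malat1 13 of the 119 positions were seen with both oligos, and in Neat1 22 of the 75. A position with a single read cannot be seen with both, and the genome's share of shared positions was not computed. These counts are therefore not read as a trait of either gene. The plus strand of both windows had 0 reads in either library. In the 21899 nt between the genes there were 2 reads on the minus strand and 3 on the plus strand, so the reads in the windows lay on the transcribed strand and far above their surroundings.

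Most captured Neat1 RNA ended at or just upstream of the short end. The largest cluster, from 5842278 to 5842330, is the short end and ranked 1286 of all clusters by reads. It had 517 CU5T45 reads (76.7 CPM) and 624 oligo(dT)10-25 reads (179 CPM). This was 68.4% (exact Clopper-Pearson interval 64.9 to 71.7) of the CU5T45 reads of Neat1 and 83.0% (80.1 to 85.6) of its oligo(dT)10-25 reads. Both libraries therefore placed most Neat1 ends there, and the oligo(dT)10-25 library a larger part.

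Within the short end, 5 positions held 97.7% of the CU5T45 and 98.7% of the oligo(dT)10-25 reads. Position 5842301 was the most used with both oligos, with 261 and 344 reads, or 50.5% and 55.1% of the cluster. Position 5842306, slightly upstream, had 113 and 105 reads, and position 5842295, slightly downstream, had 64 and 106. The remaining pair flanks the most used position, with 37 and 37 reads at 5842302 and 30 and 24 at 5842300. Cleavage thus spread over a few nucleotides in the same places in both libraries, with the second and the third position nearly level in the oligo(dT)10-25 library and not in the other.

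**Figure D1:**
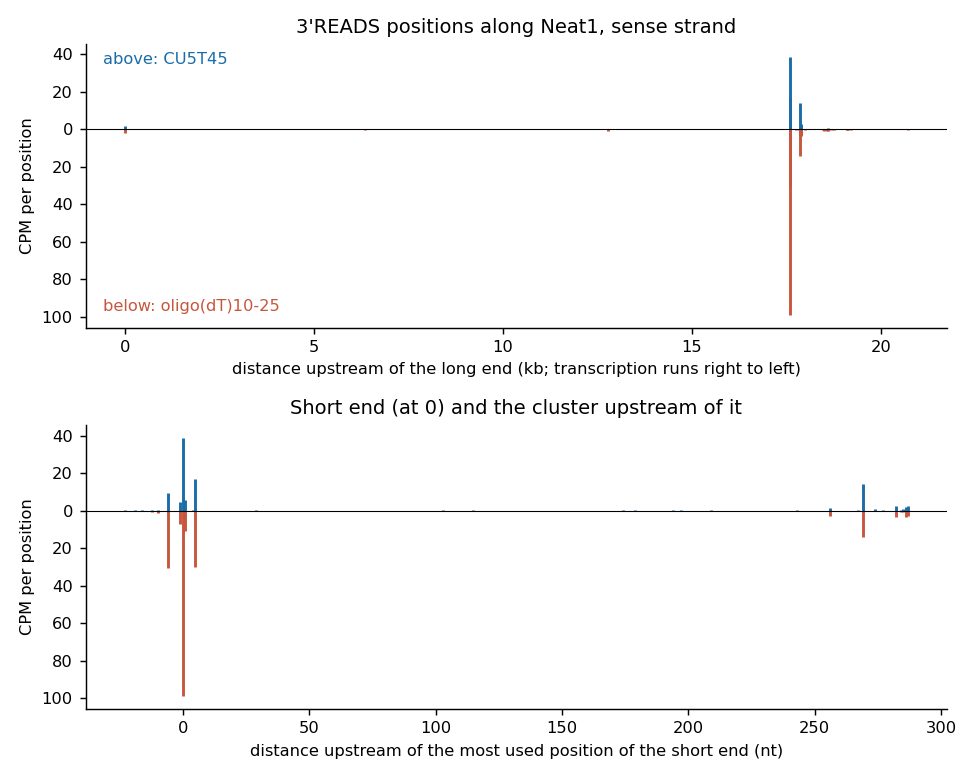
Reads per position on the sense strand of Neat1, in CPM, with CU5T45 above the axis and oligo(dT)10-25 below it. The upper plot covers the whole window by distance from the long end and the lower one the short end, where the most used positions of both libraries coincide and the upstream cluster stands apart.

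A second cluster lay upstream of the short end, from 5842544 to 5842588, with its peak at 5842570. It had 173 CU5T45 reads and 98 oligo(dT)10-25 reads, which is 25.7 and 28.1 CPM. It took 22.9% (19.9 to 26.0) of the CU5T45 reads of Neat1 and 13.0% (10.7 to 15.7) of the others. Its peak lies 269 nt upstream of that of the short end.

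The long end, from 5824706 to 5824707, was a minor source of captured RNA. It had 14 CU5T45 reads, all at 5824707, and 7 oligo(dT)10-25 reads, of which 6 were at that position. These are 1.85% (1.02 to 3.09) and 0.931% (0.375 to 1.91) of the Neat1 reads, or 2.08 and 2.01 CPM. That end is known to carry an encoded A-rich tract in place of an ordinary tail, so the amount of long Neat1 RNA cannot be read from these counts. Between both ends reads were rare, and the stretch from 3 to 12 kb upstream of the long end had 1 CU5T45 and 1 oligo(dT)10-25 read.

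Further clusters lay inside the part of Neat1 that the short and long RNAs share. The largest, from 5843240 to 5843293, had 16 and 6 reads over 6 positions. The others had 3 to 7 reads in both libraries together. Outside the short end, the upstream cluster and the long end, Neat1 had 52 CU5T45 reads (6.88%, 5.18 to 8.92) and 23 oligo(dT)10-25 reads (3.06%, 1.95 to 4.55).

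In Malat1 the annotated end was nearly bare of captured RNA. The cluster there, from 5795688 to 5795693, had 7 CU5T45 reads and 3 oligo(dT)10-25 reads, 1.04 and 0.861 CPM, with position 5795689 the most used. The cluster that lies at the distance of the A run had 0 CU5T45 reads and 3 oligo(dT)10-25 reads, of which 2 were at 5795987. With so few reads no difference between the oligos was detectable at either place.

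Most reads of Malat1 came from inside the gene, from 2 clusters of unlike shape. The internal cluster, from 5798317 to 5798397, had 47 CU5T45 and 37 oligo(dT)10-25 reads at 8 positions, 6.98 and 10.6 CPM. Its reads lay mainly at a pair of positions that the oligos used unequally, singled out after their values were seen. Position 5798340 had 39 CU5T45 and 13 oligo(dT)10-25 reads, whereas position 5798393, 53 nt upstream, had 1 and 16. The odds of the first against the second were 45.1 times as high in CU5T45, with an exact interval of 5.96 to 2062 that covers counting error only. As the pair was picked for this difference, the value is a description.

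The other, dispersed cluster reached from 5801677 to 5801941 near the 5′ end of Malat1, over 265 nt and 38 positions. Clusters of 30 or more reads in the genome had a median span of 15 nt and 5 positions. The oligo(dT)10-25 library had 46 reads there at 32 positions and the CU5T45 library 9 reads at 9 positions. The highest count at a position was 3 reads over both libraries, shared by 5801747, 5801797, 5801851 and 5801931. No position of this stretch thus dominated in either library. Whether the genome is A-rich there was not tested, nor at the internal cluster or the upstream cluster of Neat1. No sequence of the mm9 build was used here.

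The oligos were compared by the ratio of their shares of all reads, at clusters with 30 or more reads. There were 4 such clusters in the genes, and 2 of them were lower in CU5T45 with an interval below 1. In the genome, 23.5% of 16684 such clusters were lower and 27.5% were higher in CU5T45. The short end was 2.34-fold lower in CU5T45 (2.07 to 2.63) and its ratio stood at percentile 10.8 of the genome's clusters. The dispersed Malat1 cluster was 9.89-fold lower (4.78 to 23.0), at percentile 1.38. It was the 1 of the 4 that was at least 4-fold lower, as were 4.51% of clusters in the genome, while 1.75% were at least 4-fold higher.

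The other clusters had intervals that included 1. The upstream cluster of Neat1 had a ratio of 0.912 (0.708 to 1.18). For the internal Malat1 cluster it was 0.657 (0.418 to 1.04), and with clusters joined only over gaps of up to 10 nt, which separates its main positions, the cluster at 5798340 had a ratio of 1.55 (0.810 to 3.17). The genome's median ratio was 1.08, with 0.267 and 2.68 as the 5th and 95th percentile.

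**Figure D2:**
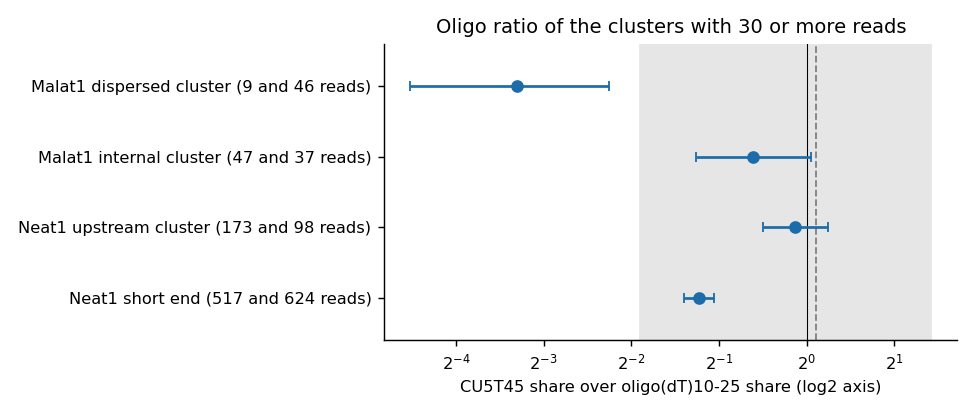
CU5T45 share over oligo(dT)10-25 share, on a log2 axis, at the 4 clusters with 30 or more reads, with 95% counting intervals. Grey marks the 5th to 95th percentile of 16684 clusters and the dashed line their median of 1.08, and the dispersed Malat1 cluster lies outside the grey band.

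Sites within a gene did not follow the same ratio. Relative to the short end, the upstream cluster had 33.5% as many reads in CU5T45 and 15.7% as many in oligo(dT)10-25, an odds ratio of 2.13 (exact interval 1.61 to 2.83). This comparison uses only Neat1 reads and does not depend on the library totals. The long end had 2.71% and 1.12% as many reads as the short end, an odds ratio of 2.41 whose interval of 0.903 to 7.12 includes 1. In Malat1, the internal cluster was favoured over the dispersed one in CU5T45 with an odds ratio of 6.40 (2.67 to 16.9). The short end, the upstream cluster and the long end came in this order by reads with both oligos. In Malat1 the internal cluster came far before the dispersed one in CU5T45, with 47 against 9 reads. In oligo(dT)10-25 they had 37 and 46 reads, and no interval was computed, so their order there is not read.

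Summed over each gene, both RNAs took a smaller share of the CU5T45 reads. The ratio was 0.351 (0.267 to 0.460) for Malat1 and 0.520 (0.469 to 0.576) for Neat1. When each position was counted once in place of its reads, the ratio of Malat1 was 0.410, while that of Neat1 turned to 1.30 (0.846 to 2.02), as CU5T45 had 61 positions there and oligo(dT)10-25 had 36. Without the short end, the other 239 and 128 reads of Neat1 had a ratio of 0.965 (0.775 to 1.21).

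CstF64 alignments were dense over both genes in C2C12 cells and ordered the genes the other way from the polyadenylated ends. Malat1 held 5108 and 6266 distinct alignments in the 2 replicates, 0.464% (0.451 to 0.477) and 0.463% (0.452 to 0.475) of each library. Neat1 held 2021 and 2520, which is 0.184% and 0.186%. Per length, Malat1 had 719 and 882 alignments per kb and Neat1 had 96.2 and 120, so Malat1 was 7.47 and 7.35 times as dense. The CLIP counts were not divided by the amount of each RNA, which was not measured in these cells. Malat1 RNA is known to end in an encoded A-rich tract in place of an ordinary tail. Its amount therefore cannot be read from captured ends either, and these orders do not rank the genes by RNA.

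The replicates were compared before they were used. In Malat1 91.3% and in Neat1 90.1% of the replicate 1 alignments shorter than 50 nt were also in replicate 2. The chi-square of counts in 100 nt bins was 0.344 and 0.227 per degree of freedom. They differed by less than the sampling noise, were counted as 1 sample, and their likeness is no measure of replication. Each is still given beside the other.

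The alignments lay on the transcribed strand. On the plus strand, Malat1 had 0 alignments in both replicates, where a count of 0 allows up to 3, and Neat1 had 1 in each. The stretch between the genes had 5.25 and 7.49 alignments per kb on the minus strand and 0.365 and 0.502 on the plus strand. Malat1 was 137 and 118 times as dense as the minus strand of this stretch, and Neat1 18.3 and 16.0 times.

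Compared with the rest of the genome, both genes were near the top. In tiles of 7101 nt, the length of the Malat1 window, laid from its edge over the genome, Malat1 ranked 2 of 123137 tiles with an alignment, by the lower replicate. In tiles of 21001 nt, Neat1 ranked 4 of 63198. Only these tiles were placed to match a gene. Among 739191 bins of 100 nt the highest of Malat1 ranked 2 and the highest of Neat1 ranked 36.

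Within Malat1, CstF64 alignments gathered in the third kb upstream of the end, the place of the internal cluster. From 2 to 3 kb upstream of the Malat1 end lay 37.2% and 35.7% of the alignments, and from 1 to 2 kb a further 20.2% in each replicate. Bins of 100 nt were ranked by the lower replicate. The highest, from 5798300 to 5798399, had 580 and 679, and it is the bin that holds the internal cluster with its 47 and 37 reads. Next to it, the bin from 5798200 had 543 and 611. The bins from 5797400 (318 and 385), 5798100 (283 and 349) and 5797100 (158 and 182) followed, and these had 0 or 1 read of either 3'READS library. The 5 highest bins held 36.8% and 35.2% of the alignments of Malat1, where a bin had a median of 47 and 58. High CLIP density in Malat1 was therefore found with and without captured ends.

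Many Malat1 alignments were sequenced repeatedly. There were 1.51 and 1.68 reads per distinct alignment in Malat1, 1.17 and 1.24 in Neat1, and 1.08 and 1.14 over each library. Counted by reads, Malat1 took 0.650% and 0.681% of the library. The part of PCR copies in this was not tested.

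**Figure D3:**
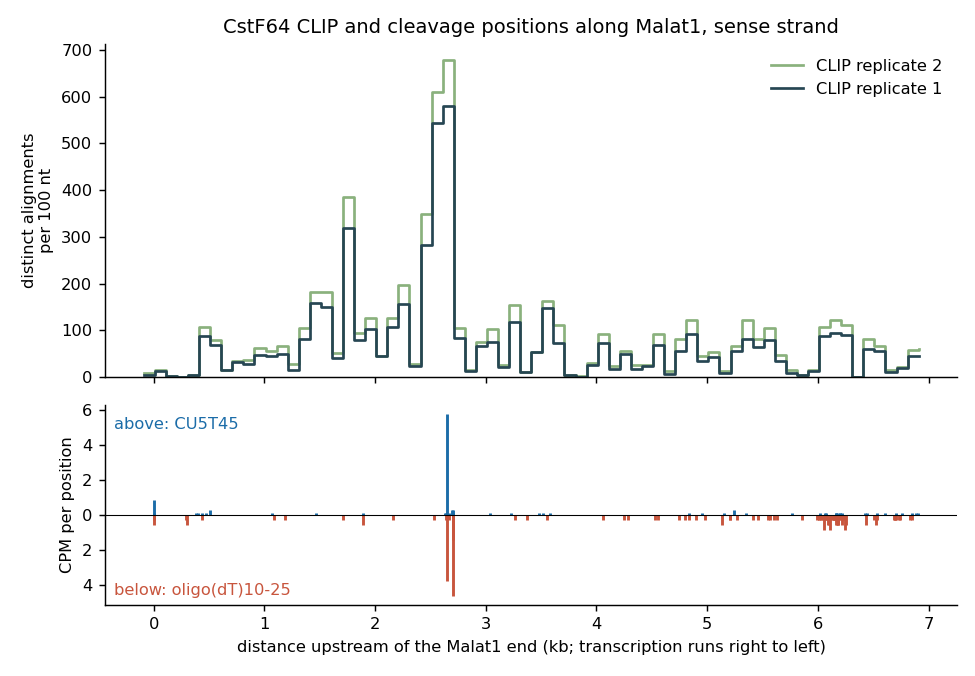
Distinct CstF64 alignments per 100 nt along Malat1 in both CLIP replicates, above the 3'READS positions in CPM, by distance upstream of the Malat1 end. The highest bin, with 580 and 679 alignments, holds the internal cluster, while other high bins have almost no captured ends. The annotated end at 0 has few alignments and few reads.

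At the 3′ border of Malat1 the alignments became sparse upstream of the annotated end, and a few reached and passed it. The last 500 nt of the window held 23 and 30 alignments together, and the 100 nt just upstream of them held 88 and 107. The Malat1 end and the cluster at the distance of the A run both lie in that sparse part. Around the annotated end, 14 and 18 alignments were centred within 100 nt upstream and 2 and 5 within 100 nt downstream.

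Along Neat1, alignments were denser in the part shared by both RNAs than in the part only the long RNA has. Upstream of the short end there were 169 and 201 alignments per kb, and downstream of it 82.8 and 105, a ratio of 2.04 and 1.91. The part read only into the long RNA was still 15.8 and 14.0 times as dense as the minus strand of the stretch between the genes. Of the 210 bins of 100 nt in Neat1, 183 had alignments in both replicates and 22 had none in either.

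The highest Neat1 bin by the same ranking, from 5842200 to 5842299, with 149 and 177 alignments, begins just downstream of the most used position of the short end. The next were the bin from 5844000 (103 and 132 alignments) and that from 5843400 (69 and 87), both within the short RNA and with 0 to 2 reads of ends. The bin from 5842500 (63 and 75) holds the upstream cluster, and that from 5833300 (50 and 66) lies far inside the long RNA. These 5 bins held 21.5% and 21.3% of the alignments, a smaller part than the 5 highest of Malat1 held there. They are 5 of 210 bins, while those of Malat1 are 5 of 71. The shares therefore do not say which gene has the more concentrated alignments.

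**Figure D4:**
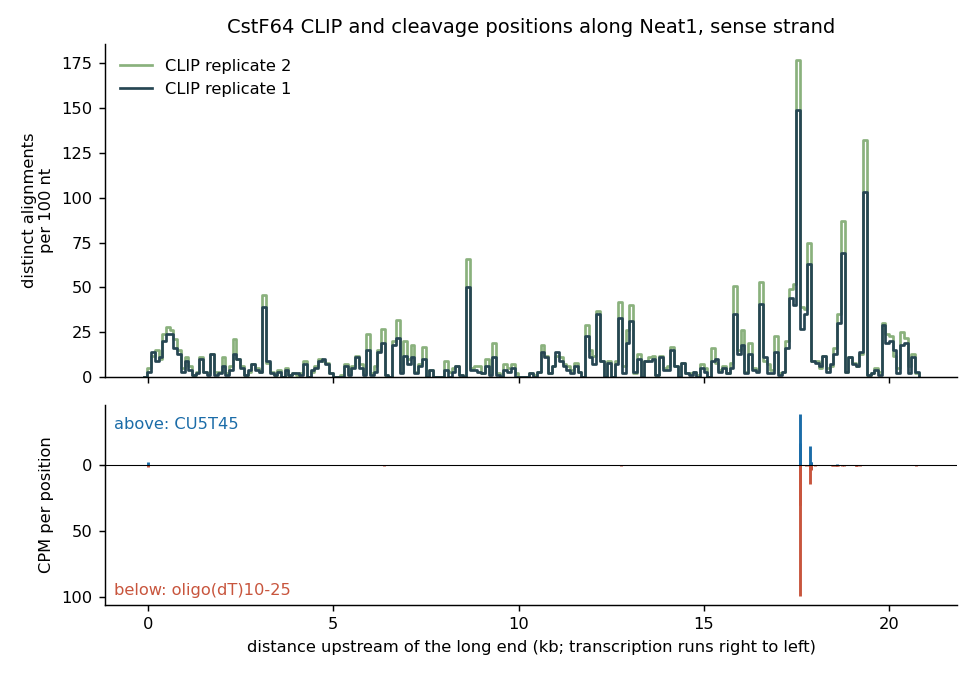
Distinct CstF64 alignments per 100 nt along Neat1 in both CLIP replicates, above the 3'READS positions in CPM, by distance upstream of the long end. The highest bin, with 149 and 177 alignments, stands at the short end, and lower counts extend along most of the gene.

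At the short end, CstF64 lay where the factor is known to bind, downstream of the cut. Within 100 nt downstream of position 5842301, 149 and 178 alignments were centred, and within 100 nt upstream 26 and 37. The downstream side thus had 85.1% and 82.8% of them. The densest 20 nt were those from 20 to 40 nt downstream, with 61 and 77 alignments. Of 2705 clusters in the genome with 500 or more reads, none had more alignments within 100 nt downstream, by the lower replicate. The median of these clusters was 0 and 0, and 1544 had none in the lower replicate, while the mix that gave the reads is not the line that gave the alignments.

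The side was also set beside that of other abundant clusters. Among the 19 of these clusters with 50 or more alignments within 100 nt of the site in each replicate, the median downstream part was 28.1% and 27.9%, with quartiles of 16.2% and 70.6% in replicate 1 and 14.2% and 63.2% in replicate 2. The short end had the highest of the 19 in both replicates. These clusters were picked by their number of alignments, so this is a description.

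Within 100 nt, the most used position of the upstream cluster showed the opposite side. Around position 5842570, 69 and 81 alignments lay within 100 nt upstream and 12 and 14 downstream, so that 14.8% and 14.7% were downstream. In replicate 1, 35 of those upstream were centred within 20 nt of the site and 30 between 20 and 40 nt from it. No side is given for the dispersed Malat1 cluster, which has no single most used position. Around position 5798340, the most used of the internal Malat1 cluster over both oligos, alignments lay on both sides. There were 512 and 599 upstream and 558 and 650 downstream, a downstream part of 52.1% and 52.0%. This even split holds for that position only. The oligo(dT) library had slightly more reads at 5798393, 53 nt upstream (16 against 13). Of the alignments upstream of 5798340, 195 and 218 were centred within 20 nt of it and 75 and 92 between 20 and 40 nt. These lie downstream of 5798393, around which the side was not counted.

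The long end had almost none. Within 100 nt downstream of 5824707 there were 0 alignments in both replicates and within 100 nt upstream 3 and 5, against the 149 and 178 downstream of the short end. Farther away the alignments resumed. Of the 115 and 164 minus-strand alignments in the stretch between the genes, 110 and 156 lay within 8 kb downstream of the long end, and the remaining part towards Malat1 held 5 and 8. The 3'READS libraries had 2 minus-strand reads in all of that stretch.

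**Figure D5:**
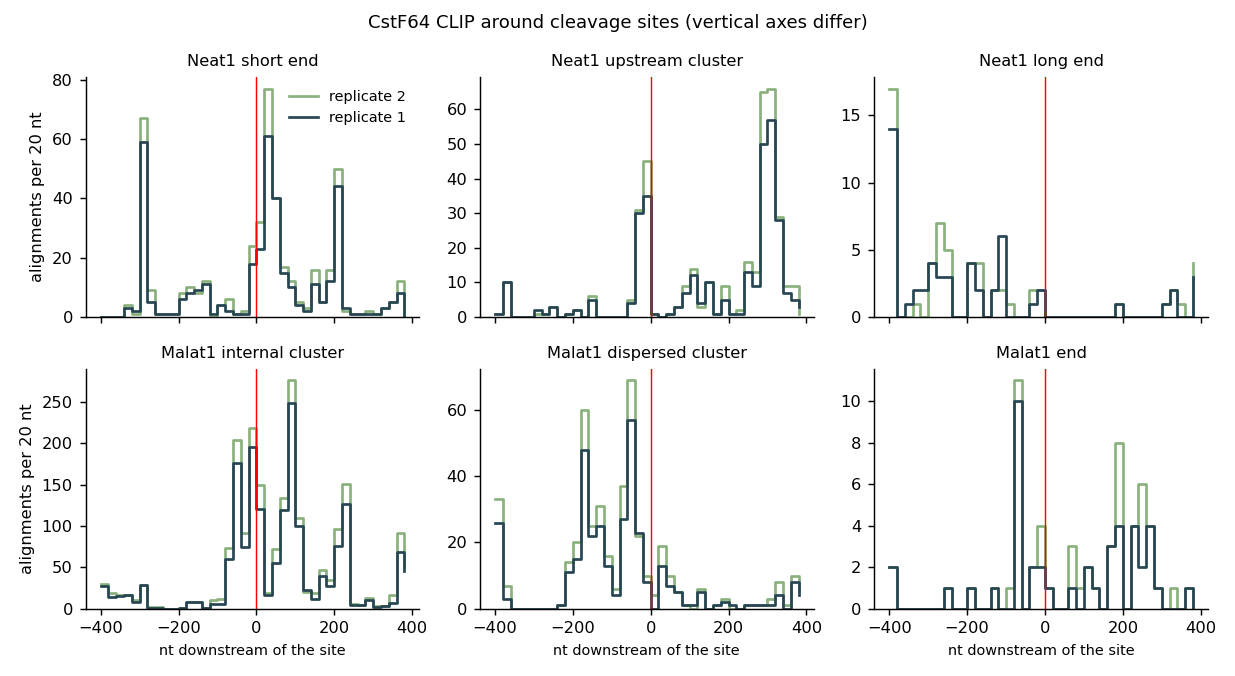
Distinct CstF64 alignments per 20 nt by distance from 6 sites of captured ends, marked by the vertical line (5801747, one of several tied positions, for the dispersed cluster), with downstream to the right and a separate vertical axis for each site. Within 100 nt of the site, alignments lie mainly downstream of the Neat1 short end and mainly upstream of the most used position of the upstream cluster. They are at 0 downstream of the long end.

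Over all clusters of 3 or more reads, alignments were denser within 100 nt of a cluster than elsewhere in the same gene. The ratio of densities was 1.49 and 1.43 in Malat1 and 3.10 and 2.96 in Neat1. Near the clusters of 30 or more reads it was 3.48 and 3.28 in Malat1 and 6.73 and 6.42 in Neat1. In Malat1 the internal cluster alone had 1070 and 1249 alignments within 100 nt of its most used position. All 10 Malat1 clusters together had 2017 and 2408 within 100 nt. The pooled Malat1 ratio thus rests largely on 1 site and does not describe each cluster. In Neat1, 14.1% and 13.5% of all alignments lay within 100 nt of the 2 clusters of 30 or more reads. Within 100 nt of any of the 11 clusters lay 19.8% and 19.1%, so the pooled Neat1 ratio rests largely on these 2 sites. Most Neat1 clusters also lie at or upstream of the short end, in the denser part of the gene. The Neat1 ratio includes that difference, and the smaller clusters were not tested alone. Still, 60.5% and 61.6% of Malat1 alignments and 80.2% and 80.9% of Neat1 alignments lay farther than 100 nt from any cluster. The stretches within 100 nt of a cluster made up 30.4% of the Malat1 window and 7.40% of the Neat1 window. Most alignments were thus counted away from the ends mapped in the mix, as was most of the sequence. Ends in C2C12 cells were not mapped.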

How the data were processed

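The data are 2 libraries of 3'READS and 2 of CstF64 CLIP. The deposited read counts are whole numbers per cleavage position or per distinct alignment, and per the labels they were not normalized in any stated way. The submitters' processing notes list the build mm9 and the tools Novoalign and Bowtie, with neither their versions nor what each was used for. A filter on reads, such as a demand for untemplated A at their end, is not described in these sources. It could remove ends in encoded A-rich tracts. The files do not say if they count from 0 or from 1, which leaves 1 nt of doubt at each position.

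Positions of both libraries were chained on each strand at gaps of at most 24 nt, with 3 or more reads kept. Ratios of shares, at clusters of 30 or more reads, have exact conditional binomial intervals, shares have Clopper-Pearson intervals and odds ratios have exact conditional intervals. CLIP alignments were counted by midpoint, on both strands, in windows and in bins of 100 nt. Each member was named by the rule of all clusters with 30 or more reads, the 5 clusters with most reads, the 5 most used positions of the largest cluster and the 5 highest CLIP bins. The text also describes smaller clusters and bins, chosen after their values were seen.

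The members, windows and rules were chosen with earlier results of these data known. The distances, sequences, odds ratios, ranks among abundant clusters and sides of CLIP were chosen after seeing the data. No mm9 annotation or sequence was used here, so other genes of nuclear bodies, markers of C2C12 cells and sequence at the mm9 positions were not analysed here. Annotated ends and sequences are from GENCODE vM21 on GRCm38. The ratio was tested on simulated data drawn with counting error only, which cannot show how its intervals fare with PCR copies. Alternatives changed the gap, read minimum, depth, totals, window edges, bins, alignment end and counting, and left out each CLIP replicate. Work was done in Python 3.11.15 with scipy 1.17.1, pandas 2.3.3, numpy 2.4.6 and, for plots, matplotlib 3.10.9.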

Additional observations from a re-analysis of the deposited data

How the results depend on the processing

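Of 55 alternatives to 12 results, 43 stayed within the counting interval of the reported value, 11 moved outside it and 1 reversed. Counting each position once turned the Neat1 ratio of the oligos to 1.30 and lowered the share of Neat1 at the short end to 19.7% in CU5T45 and 22.2% in oligo(dT)10-25, since a position with many reads then counts as 1. A gap of 10 nt moved the internal Malat1 cluster to 1.55 by separating its positions, and left the dispersed Malat1 cluster with no part of 30 reads and no value. A minimum of 10 reads gave ratios at 7 clusters in place of 4, and the intervals of the added ones included 1. Counting every CLIP read raised the share of Malat1 to 0.665% and that of Neat1 to 0.200% (means of both replicates), and the cause was not tested. The 600 nt with most alignments, in bins of 100 nt, held 39.1% of Malat1 and 23.5% of Neat1 alignments, in windows of 7101 and 21001 nt. With bins of 50 nt they held 41.8% and 29.7%, with bins of 200 nt 35.0% and 18.5%, as narrower bins follow peaks more closely, and by reads 51.2% and 28.5%, where the cause was not tested. Leaving out either CLIP replicate kept all CLIP shares within their intervals. As the replicates differed by less than the sampling noise, this could hardly come out otherwise and is no sign of stability. No paired analysis was possible because each oligo has 1 library and the CLIP replicates form 1 group. At the annotated Malat1 end the depth, 10 reads over both libraries, is too low for a ratio under the minimum used.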
